A study of Homo sapiens with 68 samples.

Results

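The transcripts described here encode the protein components of the cytosolic ribosome and were measured in A673, a human Ewing sarcoma cell line that carries the EWS/FLI translocation. They were chosen by gene symbol, as every probe set annotated to 1 gene named RPL or RPS and a digit, or named RPLP0, RPLP1, RPLP2, RPSA or FAU, without the RPS6 kinase genes and without pseudogenes. The rule took 155 of 22215 probe sets and 76 of 11882 named genes. Of these genes, 48 (101 probe sets) encode proteins of the large ribosomal subunit and 28 (54 probe sets) encode proteins of the small subunit. Cells were exposed to DMSO vehicle, cytosine arabinoside (ARA-C, a nucleoside analogue that blocks DNA synthesis), doxorubicin (a topoisomerase II poison) or puromycin (an inhibitor of translation that releases the growing peptide chain). RNA was taken at 24 h, day 3 and day 5. The doses were the EC50 that the study assigned to each compound, 0.17 uM for ARA-C, 59.88 nM for doxorubicin and 0.09 uM for puromycin, and 2 times that dose (2xEC50), 0.34 uM, 119.76 nM and 0.18 uM. Each treated group held 3 arrays, labelled as biological replicates, except doxorubicin 2xEC50 at day 5 (2 arrays), puromycin EC50 at day 5 (2 arrays used) and puromycin 2xEC50 at day 5 (1 array, not tested). Vehicle held 6 arrays at 24 h, 5 at day 3 and 6 at day 5. All groups come from 1 cell line, so the replicates measure the spread between cultures of A673.

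The ribosome carries 1 copy of nearly every ribosomal protein, and cells make these proteins and the ribosomal RNA together because an unpaired subunit cannot be used. Most mRNAs of the family start with a C that is followed by an unbroken stretch of pyrimidines, the 5′ terminal oligopyrimidine (TOP) tract, through which translation of the whole family is switched by growth signals. Free ribosomal proteins such as RPL5, RPL11, RPL23 and RPL26 bind MDM2 and stabilise p53 when ribosome assembly is disturbed, for which ribosomal stress is best known in drug-treated tumour cells. A few members, among them RPL39L, RPS27L and RPL26L1, are paralogs that replace or resemble a standard subunit protein in some tissues.

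The sequence at the start of transcription is the feature that members share without its having been used to choose them. RefSeq promoter entries of GRCh38.p14 were found for 64 of the 76 genes (76 entries). In 45 of these 64 genes (70.3%) an entry began, on the gene's own strand, with a run of at least 5 bases that were all C or T, against 6.5% of the 27305 genes of the table, 4 of 46 mitochondrial ribosomal protein genes (8.7%) and 12 of 14 genes of translation factors and related TOP mRNAs (85.7%). The last list was chosen as TOP genes, so its share is no independent reference. Such a run is a description of the annotated start and was not tested for function. The 6 genes below are shown because the day 5 results turn on them or, for RPS27L, because the run is missing. Each line gives the 10 bases before and the 20 bases after the start on the gene's strand, with the run from the start in capitals.
RPL39 (chrX:119791611-119791640, minus strand): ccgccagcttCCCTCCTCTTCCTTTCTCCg
RPL35 (chr9:124861938-124861967, minus strand): cgcctacttcCTCTTTCCCTCggagcgggc
RPLP2 (chr11:809957-809986, plus strand): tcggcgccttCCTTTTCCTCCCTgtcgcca
RPL38 (chr17:74203668-74203697, plus strand): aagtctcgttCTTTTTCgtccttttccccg
RPL3 (chr22:39319604-39319633, minus strand): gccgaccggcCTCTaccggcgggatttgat
RPS27L (chr15:63157458-63157487, minus strand): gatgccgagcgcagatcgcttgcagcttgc
The run of RPL39, at 19 bases, was the longest of the members, and those of RPL35, RPLP2 and RPL38 held 11, 13 and 7 bases. The start annotated for RPL3 gave 4 such bases and that of RPS27L none. RPL39L, the paralog of RPL39, was not matched.

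Ribosomal protein transcripts were among the brightest on the arrays. The mean deposited signal was above 16000 in 77 of the 155 probe sets, and in 52 of the 76 genes the brightest probe set passed that level. Within the family the range was wide, since 31 probe sets had a mean under 1000 and 17 under 100. Several probe sets per gene were common (39 genes had 1, the others up to 5), and 43.2% carried the _x_at suffix of probes that may hybridise to more than 1 transcript, against 10.9% of all probe sets. The tests that follow used log2 signals relative to the mean of the array, so a gene that rose gained on the average probe set. Fewer cells, and less RNA per cell, cannot be told apart in such bulk samples.

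Array quality moved with the groups at day 5. The factor by which an array had been scaled ranged from 0.635 to 3.998 (median 1.00) over 67 arrays. At day 5 it was 2.29, 3.998 and 2.02 for ARA-C EC50, 1.36, 1.39 and 1.44 for doxorubicin EC50, 2.70 and 2.73 for doxorubicin 2xEC50, and 0.818 to 1.39 for vehicle. The log2 ratio of the 3′ over the 5′ probe set of ACTB, which grows as RNA degrades, was 2.88 to 5.07 in ARA-C EC50, 2.13 to 2.93 in doxorubicin EC50, 4.10 and 5.00 in doxorubicin 2xEC50 and 0.53 to 2.08 in vehicle. Cells were of the labelled kind in the arrays used, with a summed signal of the 5 measured Ewing sarcoma marker genes of 16639 to 38214 and a summed signal of the 7 measured blood marker genes of 31.3 to 407. Puromycin EC50 day 5 replicate 3 went against its label, with 5487 and 100512, and was left out. ARA-C EC50 day 3 replicate 3 and ARA-C 2xEC50 24 h replicate 2 had raised low signals, the 10th percentile being 34.5 and 22.1 against a median of 3.43 over the arrays. On the array plate, rows G and H held vehicle replicates 4 to 6, all ARA-C 2xEC50 arrays and puromycin 2xEC50 at day 5, and rows A to F the rest. The ACTB ratio of day 5 vehicle was 1.92, 2.08 and 1.93 in rows A to F and 0.53, 0.66 and 0.63 in rows G and H. The median of the members relative to the array mean was 6.69, 6.92 and 6.98 in the former and 6.57, 6.59 and 6.51 in the latter. All ARA-C EC50 and doxorubicin arrays of day 5 lay in rows A to F, and the main fit pooled both parts of vehicle.

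**Figure D1:**
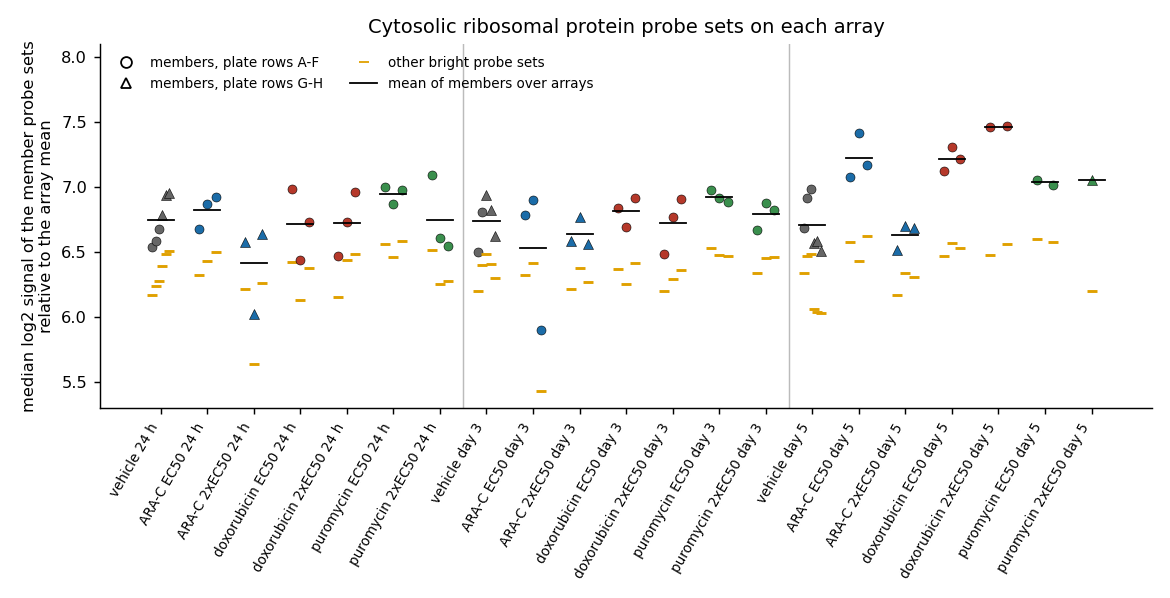
Median over the 155 ribosomal protein probe sets of each array (log2 signal relative to the array mean, y axis) by treatment group and time (x axis). Circles are arrays of plate rows A to F and triangles those of rows G and H, and the black line is the group mean of the members. Each yellow bar is the median, on that array, of the 493 other probe sets with a mean signal of at least 8000. At day 5 the ARA-C EC50 arrays (7.08, 7.41 and 7.17) and the doxorubicin arrays (7.12 to 7.47) lie above all 6 vehicle arrays (6.51 to 6.98).

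In vehicle-treated cells few members changed with time. No member was called at day 3 against 24 h (limma, adjusted p under 0.05), where 1.33% of all probe sets were higher and 1.3% lower, and 3 members were higher and 2 lower at an unadjusted p under 0.05. Here and below, percentages of all probe sets are at the adjusted threshold. They are no reference for member counts at an unadjusted p, which are descriptions only. At day 5 against 24 h, 3 of the 155 probe sets were higher and 10 lower, against 11.2% and 12.2% of all probe sets, with a member median of -0.04 on the log2 scale. RPS27L, a p53-inducible paralog of RPS27, gave deposited signals of 3532 to 3798 at 24 h and 4575 to 5244 at day 5, without overlap (log2 difference 0.35, SE 0.10, adjusted p = 0.00789). RPL10, a protein that joins the large subunit late in its maturation, was lower (probe set 221989_at, signals 1343 to 2117 at 24 h and 618 to 964 at day 5, log2 difference -1.12, SE 0.14, adjusted p = 1.13e-08). RPL39L was higher at day 5 (0.42, SE 0.11, adjusted p = 0.00212), and its vehicle arrays split by plate, with 1280, 1367 and 1167 in rows A to F and 2037, 2127 and 1978 in rows G and H.

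After 5 days at the EC50 of ARA-C or of doxorubicin, most ribosomal protein transcripts had risen relative to the average transcript. With ARA-C, 97 of 155 probe sets were higher and 12 lower, where 19.8% of all probe sets were higher and 28.4% lower, and the member median was 0.68 against 0.05 over all probe sets. With doxorubicin at its EC50, 101 were higher and 6 lower (16.7% and 22.6% of all), with a median of 0.57 against 0.04. At 2xEC50 of doxorubicin, 109 were higher and 13 lower (23.7% and 30.8% of all), with a median of 0.89 against 0.06. The 3 comparisons share their 6 vehicle arrays, and 85 probe sets of 54 genes were higher in all of them, against 7.15% of all probe sets, while 5 probe sets were lower in all, those of RPL3, RPL29, RPL35, RPL37A and RPL39L, against 16.7% of all.

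Members of both subunits rose. Of 101 large-subunit probe sets, 60, 63 and 69 were higher and 10, 6 and 10 lower (ARA-C EC50, doxorubicin EC50 and doxorubicin 2xEC50), with medians of 0.52, 0.52 and 0.78. Of 54 small-subunit probe sets, 37, 38 and 40 were higher and 2, 0 and 3 lower, with medians of 0.82, 0.63 and 1.05. With the brightest probe set of each gene alone, 54, 61 and 61 of 76 genes were higher and 2, 1 and 2 lower. Most falls were seen in dimmer probe sets, as 10, 6 and 11 of the 51 members with a mean signal under 8000 were lower, against 2, 0 and 2 of the 104 brighter ones. Genes with a start run of at least 5 pyrimidines had medians of 0.82, 0.58 and 0.97 (45 genes), beside 0.66, 0.60 and 1.02 for the 19 matched genes without one.

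Whether the members rose depended on the scaling. With quantile normalisation, which gives all arrays the same distribution of signals, the split of higher and lower members became 40 and 51 with ARA-C, 35 and 22 with doxorubicin EC50 and 48 and 33 with doxorubicin 2xEC50, with medians of -0.03, 0.03 and -0.01. Of all probe sets, 20.7%, 19% and 24.2% were higher and 22%, 19.4% and 24.4% lower at this setting. Many members (77 of 155 with a mean above 16000) lie at the top of that shared distribution, which holds their median near 0. The medians ran from -0.05 to 0.03 in all 17 comparisons, with -0.04 for ARA-C 2xEC50 at 24 h (-0.33 in the main fit). This setting therefore cannot show whether the family as a whole rose. With the log2 scaling factor as a covariate, a fit chosen after seeing the data, 3 and 5, 41 and 4, and 16 and 9 members were called, with medians of 0.05, 0.31 and 0.21. Of all probe sets, 5.58%, 14.3% and 10.1% were higher and 8.53%, 18.4% and 16.8% lower with the covariate. The 493 other bright probe sets also rose on balance, with 241, 233 and 222 higher and 65, 29 and 88 lower, and medians of 0.33, 0.35 and 0.28. Relative to the median of those bright probe sets, also chosen after seeing the data, the member medians were 0.38, 0.28 and 0.61. This scaling moved the median of all probe sets by -0.30, -0.28 and -0.28, and no centring moved it by -0.33, -0.19 and -0.31. Both shift all probe sets of an array by 1 value. The distance of the member median from the median of all probe sets, 0.64, 0.53 and 0.83, is then the same by construction and is no check of the rise. It was -0.03, 0.04 and -0.01 with quantile normalisation and 0.11, 0.32 and 0.26 with the covariate. With ARA-C EC50 the split was 83 and 25 relative to the bright probe sets (10.4% and 36.8% of all). It was 78 and 27 without centring (10.3% and 38% of all). Against vehicle of the same plate rows, 76 and 12, 31 and 4, and 89 and 12 members were called, with medians of 0.49, 0.39 and 0.75. Of all probe sets, 13.3%, 10.9% and 18.8% were higher and 25.4%, 18.8% and 29.1% lower there.

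**Figure D2:**
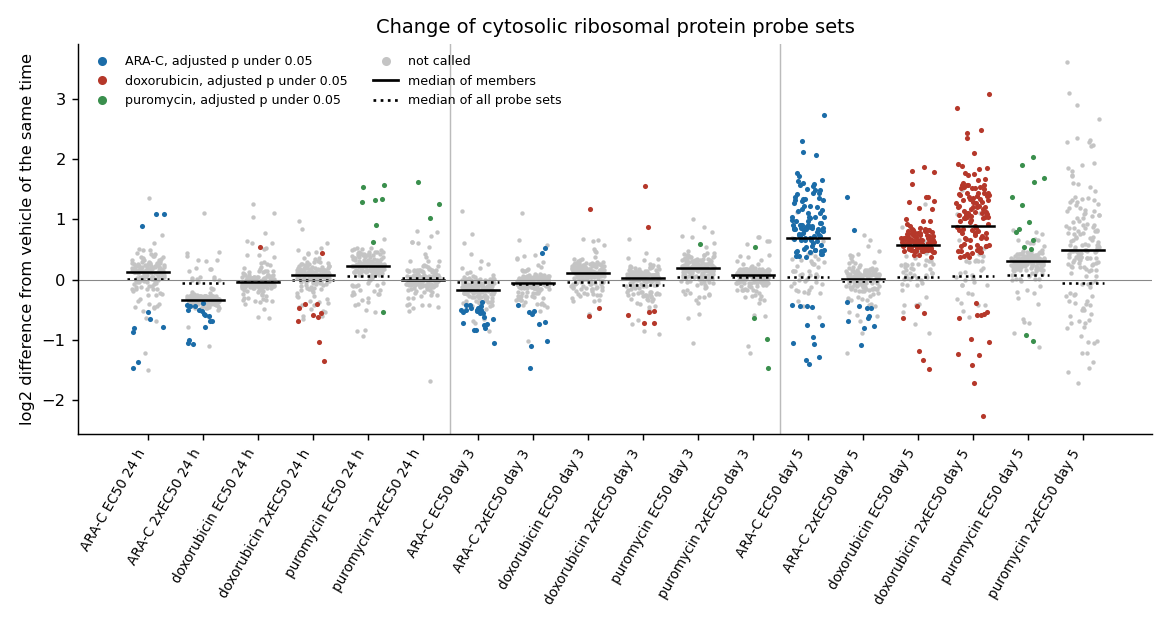
Log2 difference from vehicle of the same time (y axis) for the 155 member probe sets in each treated group (x axis). Coloured points passed the limma test at an adjusted p under 0.05 and grey points did not, the solid line is the median of the members and the dotted line that of all 22215 probe sets, and puromycin 2xEC50 at day 5 has 1 array and no test. The member median stands at 0.68, 0.57 and 0.89 for ARA-C EC50, doxorubicin EC50 and doxorubicin 2xEC50 at day 5.

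Before scaling, the day 5 signals of the members were lower or within the vehicle range. The unscaled member median of an array was 7501, 4523 and 8519 with ARA-C EC50 at day 5 and 7804 and 7646 with doxorubicin 2xEC50, below the 12170 to 18579 of the vehicle arrays of that day. It was 13655, 14612 and 13066 with doxorubicin EC50, within the range of vehicle. The highest unscaled member signal lay between 19333 and 34793 on every array used. Over the 67 arrays, which share the plate and the scaling step, the log2 scaling factor and the member median had a Pearson r of 0.68 and a Spearman rho of 0.74, and over the 17 vehicle arrays 0.71 and 0.66. For the member median minus that of the other bright probe sets, r with the log2 scaling factor was 0.85 over the 67 arrays and 0.51 over the 17. All are given as descriptions. The part of array scaling and RNA quality in the day 5 rises was not tested.

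**Figure D3:**
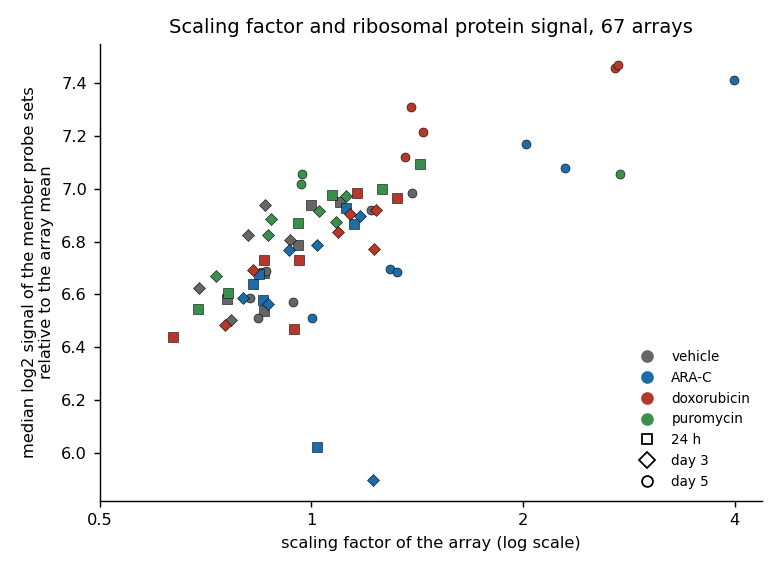
Scaling factor of each of 67 arrays (x axis, log scale) against the median of the 155 members on that array (y axis, log2 signal relative to the array mean), coloured by compound and shaped by time. Arrays with a factor above 2, all from day 5, have member medians of 7.06 to 7.47.

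RPL38, a large-subunit protein known for its part in translating Hox mRNAs, gave one of the largest rises in a dim, possibly cross-hybridising probe set, 221943_x_at (mean signal 1051). It had a lowest, median and highest signal of 517, 587 and 742 in vehicle at day 5. It was 1818, 2779 and 2530 with ARA-C EC50, 1369, 1738 and 1642 with doxorubicin EC50 and 2656 and 2540 with doxorubicin 2xEC50. All treated arrays lay above all vehicle arrays, on this scale and relative to the array mean. The log2 differences were 2.29 (SE 0.27, adjusted p = 5.71e-10), 1.59 (SE 0.27, adjusted p = 3.23e-06) and 2.42 (SE 0.31, adjusted p = 3.15e-09), and each stayed called under every alternative. With ARA-C 2xEC50, signals of 438, 562 and 746 overlapped vehicle. The bright probe set of RPL38, 202029_x_at (mean signal 19678), was higher by 1.17 (SE 0.20, adjusted p = 2.13e-06), 0.84 (SE 0.20, adjusted p = 0.000514) and 1.44 (SE 0.23, adjusted p = 4.29e-07), and with the scaling covariate by 0.12 with ARA-C EC50 (adjusted p = 0.791) and 0.36 with doxorubicin 2xEC50 (adjusted p = 0.26).

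RPL39, a small protein that lines the exit tunnel of the large subunit, was taken up after its values were seen, for comparison with its paralog. Its probe set 208695_s_at read 18450, 20796 and 25895 in vehicle at day 5 (lowest, median, highest) and 42780, 61175 and 43186 with ARA-C EC50. Doxorubicin gave 35486, 39014 and 36888 at the EC50 and 50810 and 59905 at 2xEC50. No treated array overlapped vehicle, and the log2 differences were 1.49 (SE 0.20, adjusted p = 2.19e-08), 0.97 (SE 0.20, adjusted p = 0.000104) and 1.66 (SE 0.24, adjusted p = 3.28e-08).

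Other rises covered both subunits and the stalk. RPS21, which lies on the small subunit (214097_at), gave 5292, 5334, 5072, 2668, 2502 and 2773 in vehicle replicates 1 to 6, and 9256, 9768 and 10201 with ARA-C EC50. Vehicle thus split by plate, and both parts lay below the treated arrays (log2 difference 1.72, SE 0.22, adjusted p = 6.19e-09, and 1.12 against vehicle of the same plate rows). With doxorubicin EC50, RPS21 gave 7840, 9052 and 7190 (1.29, SE 0.22, adjusted p = 3.69e-06, and 0.70 within the plate rows). RPLP1, an acidic stalk protein that recruits translation factors, was higher by 1.22, 0.78 and 1.37, and its partner RPLP2 (200909_s_at) by 0.81, 0.65 and 1.04. RPS15A, a small-subunit protein, rose in the dim 215466_at (mean signal 16.5) from vehicle signals mostly under the floor of 10 to 62.9 and 59.3 with doxorubicin 2xEC50 (2.85, SE 0.45, adjusted p = 3.67e-07). It also rose with ARA-C 2xEC50 (1.37, SE 0.39, adjusted p = 0.00572), lost without replicate 2 (adjusted p = 0.0536). With quantile normalisation the RPLP2 value turned to -0.09 with ARA-C EC50 and -0.06 with doxorubicin 2xEC50, and with the scaling covariate it was -0.03 with ARA-C EC50.

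Against this rise, RPL39L fell in every ARA-C and doxorubicin group of day 5. RPL39L is the tissue-restricted paralog of RPL39, abundant in testis and found in many tumour lines. Its probe set 210115_at read 1167 to 2127 in vehicle (median 1673). It read 572, 407 and 644 with ARA-C EC50, 558, 454 and 510 with doxorubicin EC50 and 290 and 253 with doxorubicin 2xEC50, all below the lowest vehicle array. The log2 differences were -1.27 (SE 0.13, adjusted p = 1.23e-11), -1.48 (SE 0.13, adjusted p = 7.48e-14) and -2.26 (SE 0.15, adjusted p = 1.85e-18). Within the same plate rows, where vehicle read lower, they were -1.04, -1.24 and -2.03. ARA-C 2xEC50 gave 996, 1053 and 870 (-0.76, SE 0.13, adjusted p = 7.31e-06). At day 3 RPL39L was already lower with doxorubicin, at 777, 810 and 724 at the EC50 and 846, 695 and 796 at 2xEC50 against 988 to 1138 in vehicle (-0.47, SE 0.14, adjusted p = 0.00756, and -0.51, SE 0.14, adjusted p = 0.00315). Within the plate rows the day 3 falls were not called (-0.37, adjusted p = 0.0933, and -0.41, adjusted p = 0.0556). Each day 5 fall of RPL39L at ARA-C EC50 and at both doxorubicin doses stayed called under every alternative, quantile normalisation and the scaling covariate included, and so did those of RPL35 211976_at.

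RPL35, a large-subunit protein beside the exit tunnel, was read differently by its 2 probe sets. The dim one, 211976_at, gave 1873, 2390 and 2876 in vehicle at day 5 (lowest, median, highest) and 907, 531 and 722 with ARA-C EC50. Doxorubicin gave 906, 970 and 832 at the EC50 and 467 and 699 at 2xEC50, again below every vehicle array (-1.40, SE 0.15, adjusted p = 4.62e-11 for ARA-C, then -1.18, SE 0.15, adjusted p = 4.68e-09, and -1.72, SE 0.17, adjusted p = 2.93e-12). The bright one, 200002_at, had log2 differences of -0.11, 0.24 and 0.04 (adjusted p of at least 0.171). Which transcripts each probe set reads was not analysed here.

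RPL3, the large-subunit protein nearest the peptidyl transferase centre, also had a probe set that fell. Its 211666_x_at gave 7833, 10297 and 12381 in vehicle at day 5 (lowest, median, highest), 4986, 2418 and 4535 with ARA-C EC50, 6300, 5491 and 6204 with doxorubicin EC50 and 3154 and 3623 with doxorubicin 2xEC50. Treated and vehicle arrays did not overlap (-1.06, SE 0.17, adjusted p = 6.64e-07; -0.54, SE 0.17, adjusted p = 0.00818; -1.25, SE 0.20, adjusted p = 3.26e-07). With doxorubicin EC50 the call was lost without replicate 2 (-0.49, adjusted p = 0.0508) and within the plate rows (-0.39, adjusted p = 0.116). RPL29, a large-subunit protein near the exit side (200823_x_at), fell by 0.74, 0.44 and 1.41 on the log2 scale (adjusted p = 0.000153, 0.0263 and 7.77e-09).

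**Figure D4:**
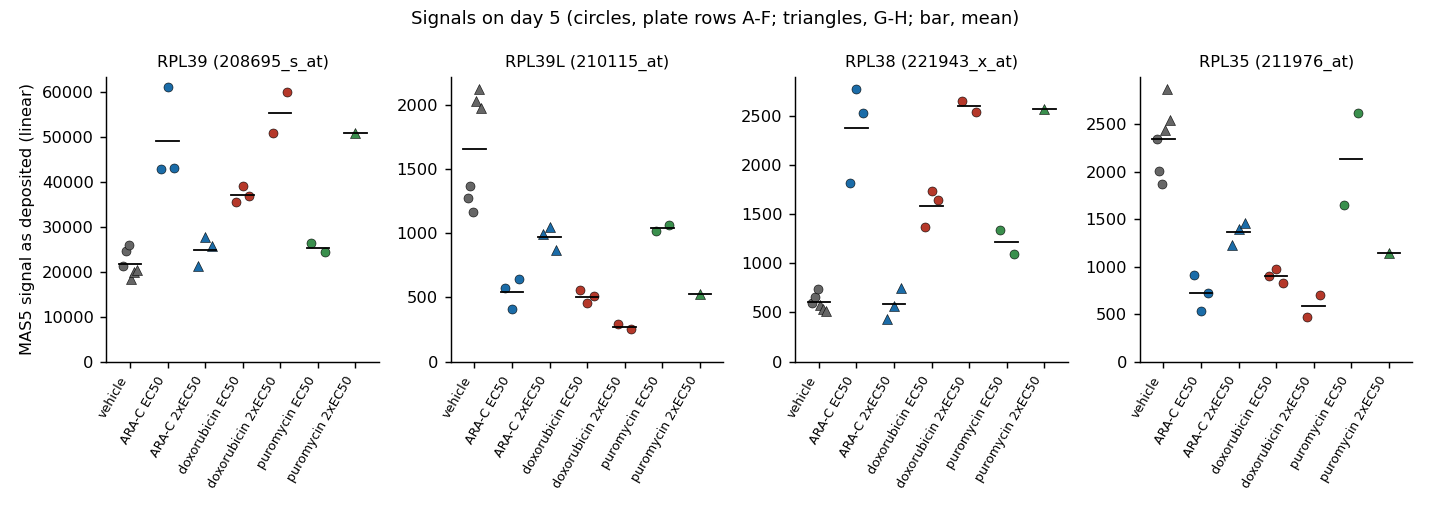
Deposited MAS5 signal at day 5 (y axis, linear, from 0) of RPL39, RPL39L, RPL38 (221943_x_at) and RPL35 (211976_at) in each group (x axis), with 1 point per array and a bar at the group mean. RPL39 and RPL38 are above the vehicle range, and RPL39L and RPL35 below it, in ARA-C EC50 and both doxorubicin groups.

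In 10 genes, probe sets of the same gene were called in opposite directions in at least 1 comparison. RPL37A, a zinc-binding protein of the large subunit, showed this in all 3 day 5 comparisons. Its bright probe set 201429_s_at gave 23039 to 33895 in vehicle and 47871, 77289 and 52572 with ARA-C EC50 (1.43, SE 0.22, adjusted p = 2.58e-07). Its 213459_at gave 497 to 712 in vehicle and 260, 153 and 299 with ARA-C EC50 (-1.04, SE 0.19, adjusted p = 1.07e-05). Neither pair of groups overlapped, so that the direction for this gene depends on the probe set. RPL31, another large-subunit protein, had 200963_x_at higher by 0.91, 0.55 and 1.10 while 200962_at was lower with ARA-C EC50 (-0.94, adjusted p = 0.000813) and doxorubicin EC50 (-1.32, adjusted p = 7.49e-06). With quantile normalisation 200963_x_at turned to -0.17, -0.08 and -0.14. The vehicle arrays of 200962_at split by plate (313, 228 and 282 in rows A to F, 603, 915 and 814 in rows G and H), and within rows A to F the ARA-C difference was -0.30 (adjusted p = 0.259). RPS2, a small-subunit protein at the mRNA entry, had 221798_x_at higher by 1.48, 0.84 and 1.54 and 217466_x_at lower with ARA-C EC50 (-1.33, SE 0.27, adjusted p = 4.82e-05) and doxorubicin 2xEC50 (-0.99, adjusted p = 0.00619). The last was lost without doxorubicin 2xEC50 replicate 1 (-0.66, adjusted p = 0.202) and turned to 0.12 with the scaling covariate. Opposite calls were also made in RPL22, RPL3 and RPS10 with ARA-C EC50 and in RPL3, RPL10, RPL14, RPL17 and RPS16 with doxorubicin 2xEC50.

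Most probe sets of the members known for roles outside the ribosome were higher at day 5. Of the 22 probe sets of 10 such genes, 17, 17 and 19 were higher and none lower with ARA-C EC50, doxorubicin EC50 and doxorubicin 2xEC50 (medians 0.77, 0.55 and 1.05), beside 19.8%, 16.7% and 23.7% of all probe sets higher. FAU, the small-subunit protein made as a fusion with a ubiquitin-like domain, gave 11816, 12758 and 15236 in vehicle (lowest, median, highest), 20800, 22777 and 20248 with ARA-C EC50 and 27813 and 25393 with doxorubicin 2xEC50, without overlap (1.03, SE 0.16, adjusted p = 5.27e-07, and 1.33, SE 0.19, adjusted p = 2.79e-08). RPL5, which binds MDM2 together with RPL11 and the 5S RNA, was read by 3 probe sets. Of these, 213080_x_at was higher by 1.30, 0.77 and 1.56, 200937_s_at had differences of 0.38, 0.36 and 0.54 (adjusted p = 0.0368, 0.0522 and 0.00847), and 210034_s_at had -0.36, 0.04 and -0.52 (adjusted p = 0.254, 0.93 and 0.136). RPL11 itself had -0.01 with ARA-C EC50 (adjusted p = 0.974), 0.51 with doxorubicin EC50 (adjusted p = 0.00383) and 0.39 with doxorubicin 2xEC50 (adjusted p = 0.0474). The last was lost without vehicle replicate 1, 4, 5 or 6 or without either treated array, and turned to -0.12 with quantile normalisation. RPS6, the small-subunit target of the S6 kinases, had 201254_x_at higher by 0.82, 0.48 and 1.06. RPS3, a small-subunit protein that also acts in DNA repair (208692_at), was higher by 0.73, 0.64 and 0.68 (adjusted p = 0.00016, 0.00106 and 0.00154). RPL23, another MDM2-binding protein, was higher by 1.05, 1.19 and 1.76 in 214744_s_at and by 0.50, 0.49 and 0.53 in 200888_s_at, and RPL26 222229_x_at by 0.46, 0.62 and 0.73, the first lost without ARA-C EC50 replicate 3 (0.41, adjusted p = 0.0608). RPL13A, which leaves the ribosome to silence inflammatory mRNAs, had 210646_x_at higher by 0.84, 0.57 and 1.06, which turned to -0.22, -0.09 and -0.15 with quantile normalisation. Of its 5 probe sets, 200715_x_at passed the test with doxorubicin EC50 (0.51, adjusted p = 0.014) but not with ARA-C EC50 (0.26, adjusted p = 0.221) or doxorubicin 2xEC50 (0.43, adjusted p = 0.0639).

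The other paralogs differed from RPL39L and from each other. RPS27L was higher with ARA-C 2xEC50 at day 3, at 5629, 5754 and 5784 against 3841 to 4245 in vehicle (0.44, SE 0.13, adjusted p = 0.0114), and with doxorubicin 2xEC50 at 24 h, at 4652, 5245 and 5165 against 3532 to 3798 (0.45, SE 0.13, adjusted p = 0.0109). Neither pair of groups overlapped, but the first call was lost without ARA-C 2xEC50 replicate 2 (0.40, adjusted p = 0.0643) and the second without doxorubicin 2xEC50 replicate 2 or 3 (0.39, adjusted p = 0.0941 and 0.106). With doxorubicin 2xEC50 at day 5 it was lower, at 2501 and 2760 (-0.59, SE 0.15, adjusted p = 0.000565). RPL26L1, the close copy of RPL26, gave 2927, 2672 and 2720 with ARA-C EC50 at day 3 against 3688 to 4081 in vehicle (-0.83, SE 0.14, adjusted p = 1.71e-05) and was also lower with ARA-C 2xEC50 (-0.54, adjusted p = 0.00482). RPL36AL was higher with doxorubicin EC50 at day 5 (0.57, SE 0.17, adjusted p = 0.00514). RPL10L, a testis-expressed copy of RPL10 read by the dim 217559_at (mean signal 42.9), was higher with doxorubicin 2xEC50 at day 5 (1.92, adjusted p = 0.00431). It was lower with ARA-C EC50 at 24 h, at 25.8, 23.1 and 7.0 against 36.8 to 80.4 in vehicle (-1.47, SE 0.50, adjusted p = 0.0419), a call lost without treated replicate 2 or 3 or vehicle replicate 2, 3 or 4. In vehicle it was lower at day 5 than at 24 h (-1.09, adjusted p = 0.0462), and RPL3L, the muscle form of RPL3, passed the test in none of the day 5 comparisons.

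In the earlier ARA-C groups and at the higher ARA-C dose, few members were called higher. At 24 h, 3 members were higher and 7 lower at the EC50 (5.34% and 7.85% of all probe sets), and 0 and 16 at 2xEC50 (3.29% and 8.2% of all, with 1 higher and 62 lower at an unadjusted p under 0.05), with medians of 0.12 and -0.33. At day 3, 0 were higher and 23 lower at the EC50 (6.89% and 20% of all, median -0.17, with 3 and 34 at an unadjusted p under 0.05), and 2 and 9 at 2xEC50 (8.17% and 9.49% of all, median -0.05). The counts at an unadjusted p have no share of all probe sets beside them. At day 5 of 2xEC50, 2 were higher and 10 lower (10.5% and 14.1% of all, median 0.01). Set against vehicle arrays of its own plate rows, 2xEC50 had 0 higher and 30 lower at 24 h (2.73% and 7.2% of all, median -0.50), 3 and 10 at day 3 (8.51% and 9.15% of all, median -0.09) and 6 and 5 at day 5 (12.7% and 16% of all, median 0.20). RPL5 210034_s_at was among the lower members at 24 h of both doses (-1.36, SE 0.26, adjusted p = 0.000199, and -1.06, SE 0.26, adjusted p = 0.00393). RPL10 221989_at gave 1072, 1037 and 822 at 24 h of the EC50, all below the vehicle range of 1343 to 2117 (-0.78, SE 0.17, adjusted p = 0.00137). RPS10, a small-subunit protein (214001_x_at), was the largest rise of that group, at 271, 463 and 425 against 98.6 to 227 (1.09, SE 0.27, adjusted p = 0.00355), and was lost without treated replicate 2 (0.94, adjusted p = 0.0537). At day 3 of 2xEC50 the dim RPL35A 215249_at (mean signal 21.0) was lower with overlapping groups (-1.46, SE 0.47, adjusted p = 0.0206), a call lost without treated replicate 2 or 3 or vehicle replicate 5. RPL14, which lies on the solvent side of the large subunit (219138_at), had the largest called fall at day 3 of the EC50 (-1.04, SE 0.39, adjusted p = 0.0393). Its groups overlapped, and its vehicle arrays split by plate, at 79.1 and 103 in rows A to F and 282, 292 and 256 in rows G and H.

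Single arrays decided several of these counts. Counts with an array left out or added, here and below, have no share of all probe sets beside them. Without ARA-C EC50 replicate 3, the array of raised low signals, 1 member was higher and 1 lower at day 3, whereas 1 and 35 were called without replicate 1, 1 and 42 without replicate 2, and 0 and 15 without vehicle replicate 4. RPL3 211666_x_at (-0.29, adjusted p = 0.359) and RPL10 221989_at (-0.43, adjusted p = 0.171) lost their day 3 call without that replicate 3. At 24 h of 2xEC50, the members lower were 4 without replicate 2, 29 without replicate 3 and 10 without vehicle replicate 3. At 24 h of the EC50, 0 and 5 were called without replicate 2 and 1 and 2 without replicate 3. At 2xEC50, 1 and 4 were called at day 3 without replicate 3, and at day 5 2 and 5 without replicate 1 and 1 and 5 without replicate 2.

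With doxorubicin, few members passed the test before day 5. At 24 h, 1 was higher and 0 lower at the EC50 (2.05% and 2.71% of all, median -0.03, with 6 and 2 at an unadjusted p under 0.05), and 1 and 9 at 2xEC50 (5.96% and 7.69% of all, median 0.08). At day 3, 1 was higher and 2 lower at the EC50 (8.13% and 11.4% of all, median 0.12), and 2 and 5 at 2xEC50 (9.48% and 13.2% of all, median 0.03). The dim probe set of RPL28, a large-subunit protein (213223_at, mean signal 1013), was called higher at both doses, at 1439, 1735 and 1910 for the EC50 and 2650, 2203 and 2005 for 2xEC50 against 628 to 885 in vehicle at day 3. The groups did not overlap (1.18, SE 0.17, adjusted p = 1.7e-07, and 1.56, SE 0.17, adjusted p = 9.62e-11). Its bright probe set 200003_s_at (mean signal 19009) had 0.23 (SE 0.16, adjusted p = 0.38) and 0.15 (SE 0.16, adjusted p = 0.615) at day 3. At day 5 that probe set was higher by 0.58 (adjusted p = 0.00152) and 0.49 (adjusted p = 0.0168), the second lost without either treated array, and turned to -0.04 and -0.29 with quantile normalisation. RPL3 211666_x_at fell as early as 24 h of 2xEC50, at 5606, 4255 and 4554 against 8632 to 10205 (-1.04, SE 0.17, adjusted p = 1.26e-05). RPS14 214245_at, a dim probe set of a small-subunit protein (mean signal 61.1), fell there too (-1.35, SE 0.47, adjusted p = 0.0436), and the call was lost without each treated array in turn and without vehicle replicate 1, 2, 3 or 4. The 1 rise at 24 h of the EC50 was RPL26 222229_x_at (0.54, SE 0.16, adjusted p = 0.0335). At 24 h the EC50 count was 0 and 0 without vehicle replicate 1 or 3 or treated replicate 1 or 3, and 1 and 1 without replicate 2, and that of 2xEC50 was 1 and 5 without vehicle replicate 3 or 4, 0 and 1 without replicate 2 and 0 and 3 without replicate 3.

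With puromycin, which acts on the ribosome itself, between 0.645% and 9.03% of the members passed the test in each group. At its EC50, 7 were higher and 1 lower at 24 h (3.6% and 4.3% of all, median 0.23, with 33 and 2 at an unadjusted p under 0.05), 1 and 0 at day 3 (0.918% and 1.41% of all, median 0.19, with 8 and 1 at an unadjusted p under 0.05), and 12 and 2 at day 5 (9.15% and 7.29% of all, median 0.32, with 30 and 4 at an unadjusted p under 0.05). Again the percentages are at the adjusted threshold only. The day 5 split moved with the scaling. It was 50 and 1 with the array median subtracted (19.4% and 4.75% of all, median 0.57, with the median of all probe sets moved by 0.25). With the scaling covariate it was 22 and 3 (10.4% and 8.98% of all, median 0.33). Relative to the other bright probe sets it was 9 and 8 (3.4% and 14.7% of all, median -0.03). Quantile normalisation gave 13 and 8 (10% and 8.37% of all, median 0.01), and no centring 11 and 4 (5.31% and 12.1% of all, median 0.09). Against vehicle of the same plate rows it was 3 and 0 (2.01% and 2.02% of all, median 0.12). At 2xEC50, 3 were higher and 0 lower at 24 h (3.31% and 3.43% of all, median 0.00, with 7 and 5 at an unadjusted p under 0.05) and 1 and 3 at day 3 (5.03% and 5.59% of all, median 0.07), and the single array of day 5 had a member median of 0.49 above vehicle, with no replicate check. RPL38 202028_s_at was higher at 24 h and day 5 of the EC50. It gave 1957, 1609 and 1802 at 24 h against 548, 824 and 969 in vehicle (lowest, median, highest; 1.31, SE 0.29, adjusted p = 0.00191). At day 5 it gave 1992 and 1739 against 598 to 864 (1.61, SE 0.33, adjusted p = 0.00039), again without overlap, and at day 3 its difference of 0.88 did not pass (adjusted p = 0.114), with vehicle at 666 and 733 in rows A to F and 1541 to 1719 in rows G and H. RPLP2 200908_s_at was also higher at 24 h (1.53) and at day 5 (1.91, adjusted p = 0.0034). The dim RPLP2 217670_at rose at day 5 (2.03, SE 0.50, adjusted p = 0.00277), from 1.3 to 23.0 in vehicle, values around the floor of 10, to 26.1 and 72.3, and was lost without replicate 2 (1.32, adjusted p = 0.253). At 24 h RPS19, a small-subunit protein mutated in Diamond-Blackfan anaemia (202648_at), gave 124, 141 and 176 against 48.2 to 96.7 in vehicle (1.33, SE 0.35, adjusted p = 0.0104), lost without replicate 3 (1.17, adjusted p = 0.0971), and RPL14 219138_at gave 375, 288 and 266 at 24 h against 72.9, 129 and 142 in vehicle (1.57, SE 0.38, adjusted p = 0.00495).

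The puromycin counts rested on single arrays. At day 5, with 2 arrays, 2 and 0 were called without replicate 1 and 5 and 0 without replicate 2, and with replicate 3 kept the count was 18 and 16 and the median -0.02. The RPL26L1 rise at day 5 (0.54, adjusted p = 0.0151) turned to -0.69 with that array kept, and was lost without either of the other arrays. At 24 h, 5 and 0 were called without vehicle replicate 1 and 3 and 0 without treated replicate 1 or 3, and the RPL14 219138_at call was lost without replicate 1 (1.42, adjusted p = 0.0628). At day 3 the one rise, that of RPL28 (0.59), was lost without vehicle replicate 4, 5 or 6 or treated replicate 1 or 2. At 2xEC50, no member was called at 24 h without replicate 1, and at day 3 the counts were 0 and 2 without replicate 2 and 0 and 0 without replicate 3. Of the day 3 falls, RPL13 214351_x_at (-0.98, SE 0.29, adjusted p = 0.0164) gave 10822, 15433 and 1879 against 12884 to 15126 in vehicle, and RPL7 217092_x_at (-1.46, SE 0.35, adjusted p = 0.00238) gave 1076, 1115 and 68.8 against 1067 to 1423. Both were low on replicate 3 and not on the other arrays, and without it the differences were -0.07 and -0.15.

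The genes around the ribosome did not all move as the members did. At day 5, 19.8%, 16.7% and 23.7% of all probe sets were higher and 28.4%, 22.6% and 30.8% lower (ARA-C EC50, doxorubicin EC50, doxorubicin 2xEC50). These are the shares beside which the day 5 counts of each list stand. Of 53 probe sets of translation factors and related TOP mRNAs, 23, 25 and 24 were higher and 5, 5 and 6 lower (medians 0.32, 0.37 and 0.34). Ribosome biogenesis factors, which process ribosomal RNA and assemble the subunits, had 19, 28 and 29 of 55 probe sets higher and 12, 3 and 3 lower (medians 0.28, 0.59 and 0.67). Mitochondrial ribosomal proteins had 7, 9 and 10 of 66 higher and 39, 26 and 32 lower (medians -0.68, -0.25 and -0.43), opposite in sign to the cytosolic family. With puromycin EC50, biogenesis factors had 41 of 55 higher and 0 lower at day 5 (median 0.79), beside 14 and 1 of 66 mitochondrial ribosomal proteins and 9.15% and 7.29% of all probe sets. The reference moved too: in vehicle, 49 of 55 biogenesis probe sets were lower at day 5 than at 24 h (median -0.99), against 12.2% of all probe sets. Blood marker probe sets had 2, 5 and 7 of 13 higher and 0 lower in the 3 day 5 groups, with a summed signal of 267 and 407 in doxorubicin 2xEC50 and 35.1 to 88.2 in vehicle, and the Ewing marker sum was 16639 and 18615 in doxorubicin 2xEC50 and 28774 to 38214 in vehicle. Their part in the member changes was not tested.

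At day 3 of ARA-C EC50 the surrounding lists were lower, with 19 of 53 translation factor, 30 of 55 biogenesis and 47 of 66 mitochondrial probe sets lower and none higher (medians -0.25, -0.61 and -0.66). Of all probe sets, 20% were lower and 6.89% higher. The group includes replicate 3, the array of raised low signals, and the lists were not refitted without it. Among translation and biogenesis factors the largest falls were those of EEF1D, a subunit of the exchange factor of elongation factor 1 (214395_x_at, -1.59, SE 0.38, adjusted p = 0.00117), and of UTP18, a factor of small-subunit assembly (222038_s_at, -2.84, SE 0.66, adjusted p = 0.000878). Both are dim probe sets, with mean signals of 285 and 131, beside 12119 and 5327 for the brightest probe set of each gene. MRPS18C, a mitochondrial ribosomal protein read by a dim probe set (220103_s_at, mean signal 34.2), had -2.09 (SE 0.52, adjusted p = 0.0017). NIP7, needed for large-subunit maturation, fell by 1.27 on the log2 scale (219031_s_at, SE 0.17, adjusted p = 2.4e-07). With doxorubicin EC50 at day 3, UBTF, the RNA polymerase I factor (214881_s_at, -1.14, adjusted p = 6.76e-05), and MRPL12, a mitochondrial ribosomal protein (203931_s_at, -1.09, adjusted p = 3.06e-08), were lower.

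**Figure D5:**
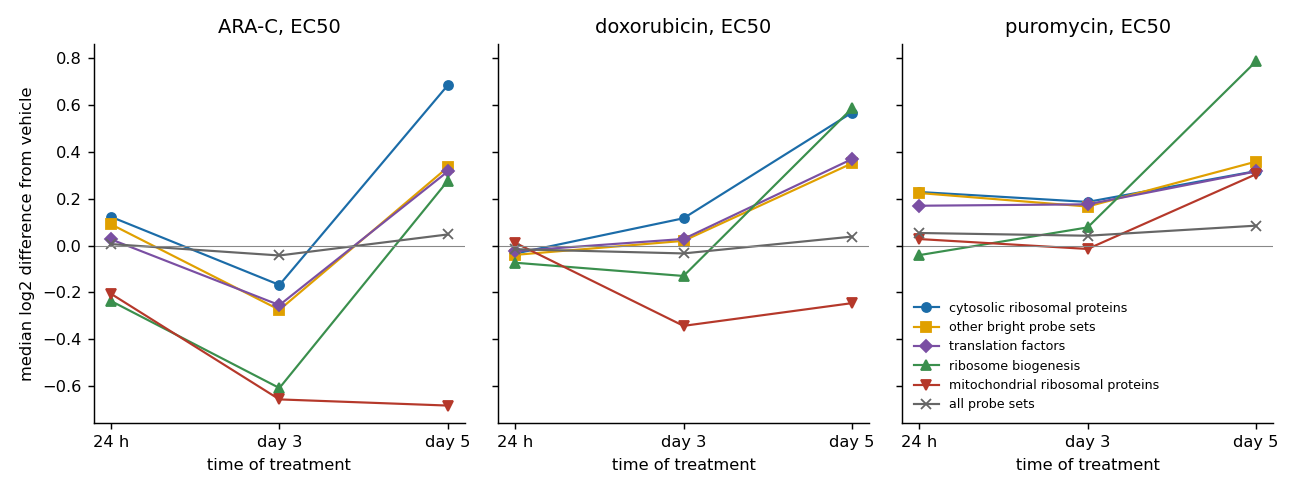
Median log2 difference from vehicle of the same time (y axis) at 24 h, day 3 and day 5 (x axis) at the EC50 of each compound, for the ribosomal protein members, other bright probe sets, translation factors, ribosome biogenesis, mitochondrial ribosomal proteins and all probe sets. At day 5 of ARA-C the members stand at 0.68 and the mitochondrial ribosomal proteins at -0.68.

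Groups of the same day were compared directly for the 3 pairs of compounds at their EC50 and for the 2 doses of each compound, 17 contrasts in all. The doses of different compounds are set by their own EC50, and p-values were adjusted within each contrast over all probe sets. Doxorubicin and ARA-C differed in 2 members at 24 h, 7 at day 3 and 19 at day 5 (4.43%, 11.4% and 17.4% of all probe sets). At day 5 RPL28 213223_at was higher with doxorubicin by 0.77 (SE 0.19, adjusted p = 0.00276) and RPL37A 214041_x_at lower (-1.43, SE 0.40, adjusted p = 0.00979). For RPL39L the difference was -0.21 (SE 0.15, adjusted p = 0.374) and for RPL38 221943_x_at -0.71 (SE 0.31, adjusted p = 0.113). Puromycin and ARA-C differed in 3, 36 and 64 members (6.29%, 25.4% and 33.3% of all), with 36 higher with puromycin at day 3 and 50 lower with puromycin at day 5. The day 3 contrasts with ARA-C EC50 include its replicate 3, an array of raised low signals (member median 5.90 against 6.79 and 6.90). They were not refitted without that array. RPL39 was lower with puromycin than with ARA-C at day 5 (-1.04, SE 0.26, adjusted p = 0.00152), and RPL39L higher (0.87, SE 0.17, adjusted p = 4.65e-05). Puromycin and doxorubicin differed in 0, 3 and 6 members (1.87%, 17% and 22.7% of all), among them RPL39L at day 3 (0.43, SE 0.15, adjusted p = 0.0409) and day 5 (1.08, SE 0.17, adjusted p = 1.77e-06) and RPL35 211976_at (0.78, SE 0.17, adjusted p = 0.000688, and 1.24, SE 0.20, adjusted p = 1.77e-06), all higher with puromycin. At 24 h, 11 members differed between them at an unadjusted p under 0.05.

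Between doses, the contrast was widest for ARA-C. At 24 h 30 members were lower at 2xEC50 than at the EC50 (11.3% of all probe sets called), at day 3 RPS27L alone was higher (0.55, SE 0.15, adjusted p = 0.0209, 5.03% of all), and at day 5 99 differed, 95 of them lower at 2xEC50 (28.2% of all). The 24 h contrast includes 2xEC50 replicate 2, an array of raised low signals (member median 6.02 against 6.58 and 6.64). It was not refitted without that array. RPL38 221943_x_at had -2.40 (SE 0.31, adjusted p = 4.55e-07) and RPL39 -1.32 (SE 0.24, adjusted p = 4.38e-05) at 2xEC50 against the EC50 at day 5, while RPL39L was higher by 0.51 (SE 0.15, adjusted p = 0.00835). The ARA-C doses lay in different plate rows, so this contrast does not separate dose from plate part. Against vehicle of its own rows at day 5, the EC50 had 76 members higher and 12 lower (13.3% and 25.4% of all, median 0.49). There 2xEC50 had 6 higher and 5 lower (12.7% and 16% of all, median 0.20). The doses of doxorubicin shared plate rows and differed in 0 members at 24 h (0.243% of all, with 4 at an unadjusted p under 0.05), in RPL31 221593_s_at at day 3 (-0.86, SE 0.17, adjusted p = 0.00235, 1.08% of all) and in 41 members at day 5, 33 of them higher and 8 lower at 2xEC50 (25.7% of all). RPL39 was higher (0.69, SE 0.26, adjusted p = 0.0464) and RPL39L lower (-0.78, SE 0.17, adjusted p = 0.000471) at the higher dose of doxorubicin. The doses of puromycin differed in no member at 24 h (0% of all) or day 3 (0.302% of all), with 1 and 4 members at an unadjusted p under 0.05.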

How the data were processed

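The authors hybridised A673 RNA to Affymetrix high-throughput human array plates and deposited linear intensity values, 1 MAS5 signal per probe set and array, after each array had been multiplied by 1 factor. The MAS5 version and, for these arrays, the scaling target and detection calls are not given in the sources used here. Of 68 arrays, 67 were used. After 715 control probe sets were left out of the 22930 listed, 22215 were tested, of which 19230 carried 1 gene symbol, 125 several and 2860 none. Signals were floored at 10, set on the log2 scale and centred on the mean of the array, with no upper limit. Printed signals are the deposited ones, while log2 differences and tests used the centred values. One fit of group means with limma 3.58.1 (R 4.3.3; intensity trend, 46 residual degrees of freedom) gave each treated group against vehicle of its own time. Benjamini-Hochberg adjustment took in all 22215 probe sets, and a probe set was called at an adjusted p under 0.05. The fit was also run on simulated data with independent noise and no array effects, so that run does not bear on scaling or RNA quality. The scaling factor was recovered from the step between deposited values, and plate rows came from the array table of the study. The number of arrays limits the precision, and the highest correlation between arrays was 0.9871, so none was a copy.

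The members and the gene lists were chosen with earlier results of these data known. The rule for named genes took the called members of largest rise and fall in each treated group, the members with roles outside the ribosome, the paralogs, the genes with probe sets called in opposite directions and, in other lists, the largest changes of day 3. Of some genes with several such probe sets the text gives 1 or 2. RPL39 and RPL29, and the members named in contrasts between compounds or doses, were chosen after their values were seen. RPS6 kinase genes (12 probe sets) and pseudogenes (3) were left out. Alternatives covered the scaling, the floor, dim and cross-hybridising probe sets, the arrays in the fit, plate, replicate block, trend and each array in turn. Replicate numbers did not pair the arrays: the correlation of same-numbered deviations was -0.0989 to 0.114 over 43 pairs, with 1 above 0.1. Sequences are from RefSeq (GRCh38.p14).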

Additional observations from a re-analysis of the deposited data

Results flagged for a closer look

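Of 126 sets of 5 or 6 vehicle values checked, 4 held an array far from the others, where chance marks about 1 in 20 sets. The sets are the vehicle groups of 24 h, day 3 and day 5 read by many probe sets, so they are not independent. For RPL37A 214041_x_at, vehicle 24 h replicate 1 lay at -1.68 on the log2 scale relative to its array mean, below the other 5 arrays. For RPS10 214001_x_at the same array lay at -0.62, below the other 5. For the dim RPL35A 215249_at, vehicle day 3 replicate 2 lay at -3.34, below the other 4. For RPL10 221989_at, vehicle day 5 replicate 2 lay at 2.19, apart from the other 5.

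Direct contrasts between compounds or doses differed in members as follows. Doxorubicin and ARA-C at their EC50 differed in 2 probe sets at 24 h, 7 at day 3 and 19 at day 5. Puromycin and ARA-C differed in 3, 36 and 64, and puromycin and doxorubicin in 3 at day 3 and 6 at day 5. The doses of ARA-C differed in 30 at 24 h, 1 at day 3 and 99 at day 5, and those of doxorubicin in 1 at day 3 and 41 at day 5. The day 5 contrasts with ARA-C EC50 or doxorubicin 2xEC50 set arrays with scaling factors of 2.02 to 3.998 against arrays with lower factors, and the part of the scaling in them was not tested. The day 3 contrasts with ARA-C EC50 and the 24 h contrast of its doses each include an array of raised low signals, whose part was not tested either.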

How the results depend on the processing

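Over the 17 comparisons with vehicle, 17.5% of member tests were called, and 10.9% with the scaling covariate. Of 106 gene results, 76 kept their direction and call without each array in turn, and 71 of 908 such refits lost a call. The members called with ARA-C EC50 at day 3 were 14.8% of the 155, and 5.16% without centring, 9.03% with a floor of 32, with plate part as a block or with the replicate block of the paired fit, 2.58% with only the arrays compared, 3.23% against vehicle of the same plate rows, 3.87% with the left-out puromycin array kept and 9.21% with 1 probe set per gene. They were 47.7% with the scaling covariate, 1.94% without the 2 arrays of raised low signals and 7.1% relative to the other bright probe sets, 3 settings chosen after seeing the data, and 1.29% to 27.7% without each array in turn. Of all probe sets, 14.5% were higher and 7.92% lower without centring, and 3.47% and 14.2% against vehicle of the same plate rows. The shares were 5.64% and 15.2% with the covariate, and 12.3% and 7.77% relative to the bright probe sets. The other settings have no such share beside them. At day 5, 70.3% of members were called with ARA-C EC50 and 5.16% with the covariate. With doxorubicin EC50 it was 69.0%, and 36.8% with quantile normalisation, 22.6% against vehicle of the same plate rows and 29% with the covariate. With doxorubicin 2xEC50 it was 78.7%, and 52.3% and 16.1% with quantile normalisation and the covariate. The member medians of 0.68, 0.57 and 0.89 became -0.03, 0.03 and -0.01 with quantile normalisation, 0.36, 0.38 and 0.58 without centring, 0.05, 0.31 and 0.21 with the covariate and 0.38, 0.28 and 0.61 relative to bright probe sets. Against vehicle of the same plate rows the ARA-C EC50 and doxorubicin EC50 medians were 0.49 and 0.39, and without _x_at probe sets the ARA-C median was 0.49. In vehicle at day 5 the 8.39% called became 4.52% with the left-out array kept, 5.26% with 1 probe set per gene and 14.8% without _x_at probe sets. Quantile normalisation reversed RPLP2 200909_s_at (-0.09 with ARA-C EC50, -0.06 with doxorubicin 2xEC50), RPL31 200963_x_at (-0.17, -0.08 and -0.14), RPL37A 201429_s_at (-0.05 with doxorubicin EC50), RPL11 (-0.12 with doxorubicin 2xEC50), RPL13A 210646_x_at (-0.22, -0.09 and -0.15) and RPL28 200003_s_at (-0.04 and -0.29 with doxorubicin EC50 and 2xEC50). As quantile normalisation holds the median of the members near 0 in every comparison, these reversals cannot show whether the family rose. Some reversed values passed the limma test as falls. These were RPL31 200963_x_at with ARA-C EC50 (adjusted p = 0.00265) and doxorubicin 2xEC50 (adjusted p = 0.0232), RPL13A 210646_x_at with ARA-C EC50 (adjusted p = 0.00524) and RPL28 200003_s_at with doxorubicin 2xEC50 (adjusted p = 0.0104). The others did not pass. The direction of these probe sets thus depended on the scaling. The covariate reversed RPLP2 200909_s_at (-0.03) and RPS2 217466_x_at (0.12), and the left-out array reversed RPL26L1 with puromycin EC50 at day 5 (-0.69). The cause of each was not tested, except that settings with fewer arrays or probe sets also test fewer. Dim members lie near background, so their differences are the least certain.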
